A study of Mus musculus with 28 samples.

Results

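The hearts of colonized mice with chronic kidney disease (CKD) were set against those of the plain controls, to measure how far the first lay from the second. The members were chosen by sample title alone, which gave 7 CKD-Oxf and 10 sham-vehicle libraries out of 28 in the series. Each library is the RNA of the ventricular myocardium of 1 adult male C57BL/6 mouse. At 6 weeks of age the CKD-Oxf mice had most of their kidney tissue removed (5/6 nephrectomy), and on day 7 they were given Oxalobacter formigenes (Oxf), a gut bacterium that degrades oxalate, by mouth. The sham-vehicle mice had a sham operation at the same age and were given the culture medium alone. Both groups ate a diet with 1% added hydroxyproline, from which oxalate is formed, and 0.5% added calcium, so the controls carried the dietary load too. Surgery and gavage both differed between the groups, and their parts in a difference cannot be told apart within this comparison. Mouse numbers differed as well, 931 to 940 in CKD-Oxf and 901 to 910 in sham-vehicle. Anything that followed this order cannot be told apart from surgery and gavage. The CKD-vehicle (6) and sham-Oxf (5) libraries entered the same statistical fit, and their levels are given beside some of the results. The study planned 10 mice for each group, and the other 3 CKD-Oxf mice were not analysed here. The tissue was sampled in bulk, so fewer cells of a type and less RNA per cell cannot be told apart.

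In kidney failure the heart is known to enlarge and stiffen. Working muscle can return to a fetal programme with natriuretic peptides and beta myosin, fibroblasts lay down collagen, and ion channel expression can shift. O. formigenes lives on oxalate in the gut, and loss of kidney function raises oxalate in the blood. Heat shock proteins, which come up repeatedly below, are chaperones: HSP70 binds unfolded protein, DNAJ co-chaperones deliver the substrate, and HSP110 proteins such as the product of Hsph1 help HSP70 exchange its nucleotide.

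The 7 CKD-Oxf libraries held about 34804000 to 58626800 counts and the 10 sham-vehicle libraries about 22299200 to 51284000. At least 1 count was found for 27128 to 33718 genes in CKD-Oxf and for 30172 to 33473 in sham-vehicle. Reads of 7SL, a cytoplasmic RNA needed for protein secretion, made up 1.95% to 20.6% of a CKD-Oxf library and 2.30% to 19.9% of a sham-vehicle library. In an exact two-sided permutation test no difference in the 4 library measures passed (depth, adjusted p = 0.706; genes detected, 0.427; 7SL share, 0.706; mitochondrial share, 0.427), where the smallest p the 2 groups allow is 0.000103. Heart muscle markers were high throughout: the 7 ventricular cardiomyocyte markers summed to between 15062 and 35141 CPM (counts scaled to a common library size) in these 17 libraries. Atrial markers were found in every library as well, from 114 to 3075 CPM. Sham-Oxf replicate 1 had only 15879 genes with a count and belongs to neither group, but it adds to the shared estimate of the spread. The distance of a library from the sham-vehicle mean was the root mean square log2 CPM difference over genes of at least 1 log2 CPM, a sham-vehicle library being held against the other 9. It was 0.39 to 0.62 in CKD-Oxf and 0.32 to 0.60 in sham-vehicle, with medians of 0.52 and 0.42. The ranges overlapped, but the upper end of the controls was 1 library, mouse 905, and 4 of the 7 CKD-Oxf libraries lay above the next control (0.46).

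**Figure D1:**
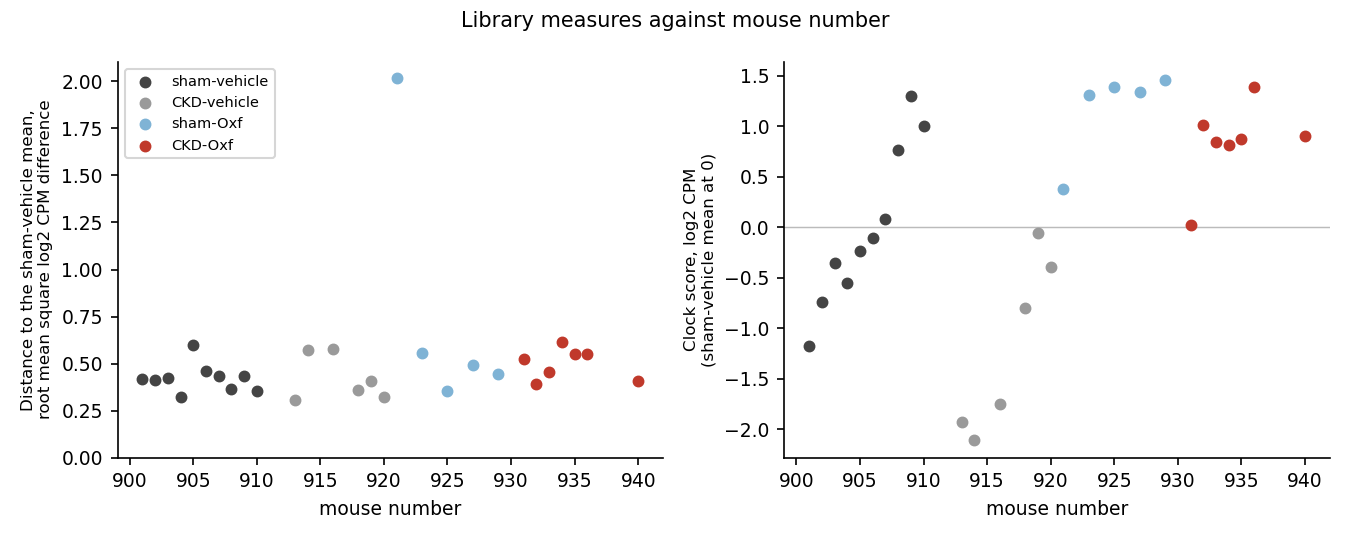
Left, distance of each of the 28 libraries from the sham-vehicle mean (root mean square log2 CPM difference) against mouse number. Right, clock score (mean log2 CPM of genes driven by BMAL1/CLOCK minus that of genes of the opposite phase, with the sham-vehicle mean at 0). CKD-Oxf distances (0.39 to 0.62) overlap those of sham-vehicle (0.32 to 0.60), and the sham-vehicle clock score runs from -1.17 to 1.30.

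Clock gene levels varied among the libraries of both groups. The clock score was 0.02 to 1.39 in CKD-Oxf and -1.17 to 1.30 in sham-vehicle, where it was lowest in mouse 901 and highest in mouse 909. In sham-vehicle it mostly rose with mouse number, from -1.17 to -0.23 in mice 901 to 905 and from -0.10 to 1.30 in mice 906 to 910. Times of death are not given in the sources used here. Fits were therefore also made with this score as a covariate and against sham-vehicle mice 901 to 905 or 906 to 910 alone.

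Of 24273 genes tested, 3 passed an adjusted p of 0.05 in edgeR's quasi-likelihood test (0.0124%): Hsph1, Dnaja1 and Slc5a3, which all fell. No gene rose by that rule (0.00%), while 1341 genes were higher at an unadjusted p under 0.05 (5.52%) and 1005 were lower (4.14%). The count depended on the tool. DESeq2 called 136 genes (53 higher and 83 lower) and limma voom with sample weights called 456 (254 higher and 202 lower), and both kept all 3. Without sham-Oxf replicate 1, edgeR called 21 genes, 2 of them higher. In edgeR no gene passed in the 17 libraries alone (2893 at an unadjusted p under 0.05), with the clock score as covariate (1881) or against mice 906 to 910 (826), and 13 passed against mice 901 to 905. Leaving out 1 of the 17 libraries at a time gave 0 to 25 calls. The count was 0 without CKD-Oxf replicate 1, 2, 3 or 6 or without sham-vehicle replicate 4, 8 or 10, and 1 without CKD-Oxf replicate 5. It was 25 without CKD-Oxf replicate 4, 5 without CKD-Oxf replicate 7, 13 without sham-vehicle replicate 6 and 6 without sham-vehicle replicate 1.

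Few calls do not show that the groups were alike, so the intervals matter as much. The median absolute log2 fold change was 0.20 over all genes tested and 0.16 over the 14317 genes of at least 1 log2 CPM. Among those better expressed genes, 6328 (44.2%) had a 95% interval lying within 0.5 log2 of no difference and 13029 (91.0%) within 1. Only 61 of them (0.426%) had a fold change of 1 log2 or more in either direction. Over all genes tested, 6384 (26.3%) were bounded within 0.5 log2 and 16397 (67.6%) within 1. The libraries of the groups did not overlap for 15 genes (0.0618%), 7 of them lower in CKD-Oxf (0.0288%) and none among the 3 called.

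**Figure D2:**
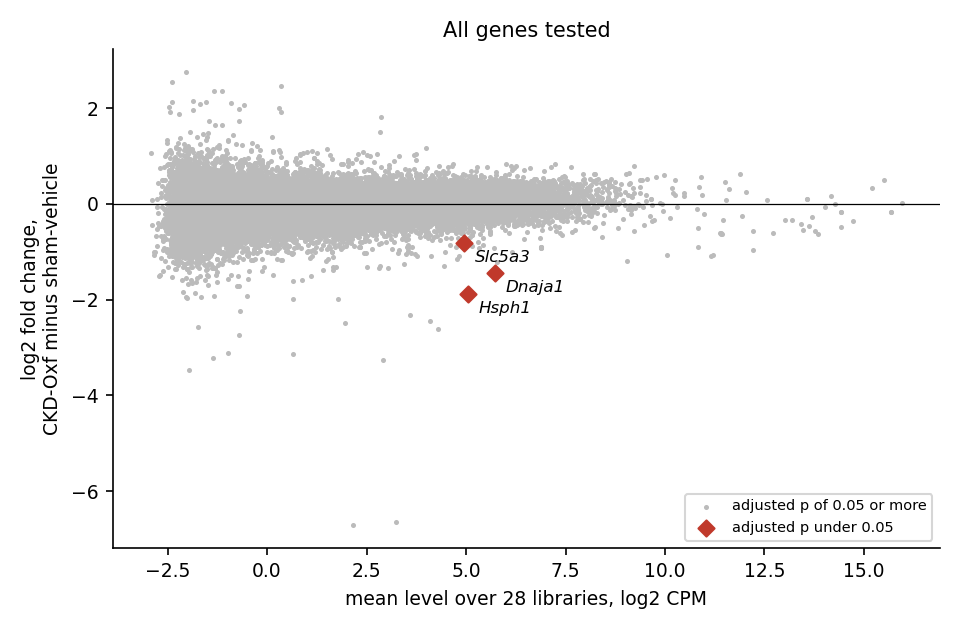
Log2 fold change of CKD-Oxf against sham-vehicle for 24273 genes against their mean level over 28 libraries (log2 CPM). Diamonds mark Hsph1, Dnaja1 and Slc5a3, the genes past an adjusted p of 0.05. The 2 points below -6 are the skeletal muscle genes Myh1 and Myh2, which rest on sham-vehicle replicate 6.

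Hsph1 (ENSMUSG00000029657), which encodes the HSP110 family chaperone HSP105, lies on chromosome 5 at 149614287 to 149636376 (build mm10, minus strand). Its level was 9.50 to 18.7 CPM in CKD-Oxf (median 13.8) and 13.8 to 112 CPM in sham-vehicle (median 47.3). The CKD-Oxf hearts were uniformly low, whereas the controls were spread widely. 2 controls, mice 901 (15.2 CPM) and 906 (13.8 CPM), lay inside the CKD-Oxf range, so the groups overlapped, and mice 903 and 905 were highest with 112 and 104 CPM. The log2 fold change was -1.89 ± 0.31 (SE; 95% interval -2.53 to -1.25; edgeR adjusted p = 0.0286). By mean the CKD-Oxf hearts held 13.9 ± 2.96 CPM (SD, n = 7) and the sham-vehicle hearts 51.5 ± 32.9 (n = 10), with CKD-vehicle (24.9) and sham-Oxf (33.2) between them.

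Dnaja1 (ENSMUSG00000028410), a DNAJ co-chaperone of HSP70, lies on chromosome 4 at 40722150 to 40737149 (plus strand). It ranged from 23.0 to 35.7 CPM in CKD-Oxf (median 25.2) and from 24.6 to 157 CPM in sham-vehicle (median 69.0). The same controls stood out: mice 906 and 901 were lowest and mice 905 and 903 highest. Its log2 fold change was -1.45 ± 0.25 (95% interval -1.97 to -0.94; edgeR adjusted p = 0.0286). By mean CKD-vehicle (45.6 CPM) and sham-Oxf (52.6) lay between CKD-Oxf (27.7) and sham-vehicle (75.8). The gene overlaps Smu1 on the other strand and the use of strand in counting is not given in the sources used here, so reads of these neighbours may be mixed. A pair of processed pseudogenes with the sequence of Dnaja1 followed it, AC107815.5 with a log2 fold change of -1.31 (adjusted p = 0.0861) and RP23-38J11.2 with -1.38 (adjusted p = 0.0861). They share 83.5% and 47.6% of their 31-base words with Dnaja1 transcripts, so their counts are uncertain.

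**Figure D3:**
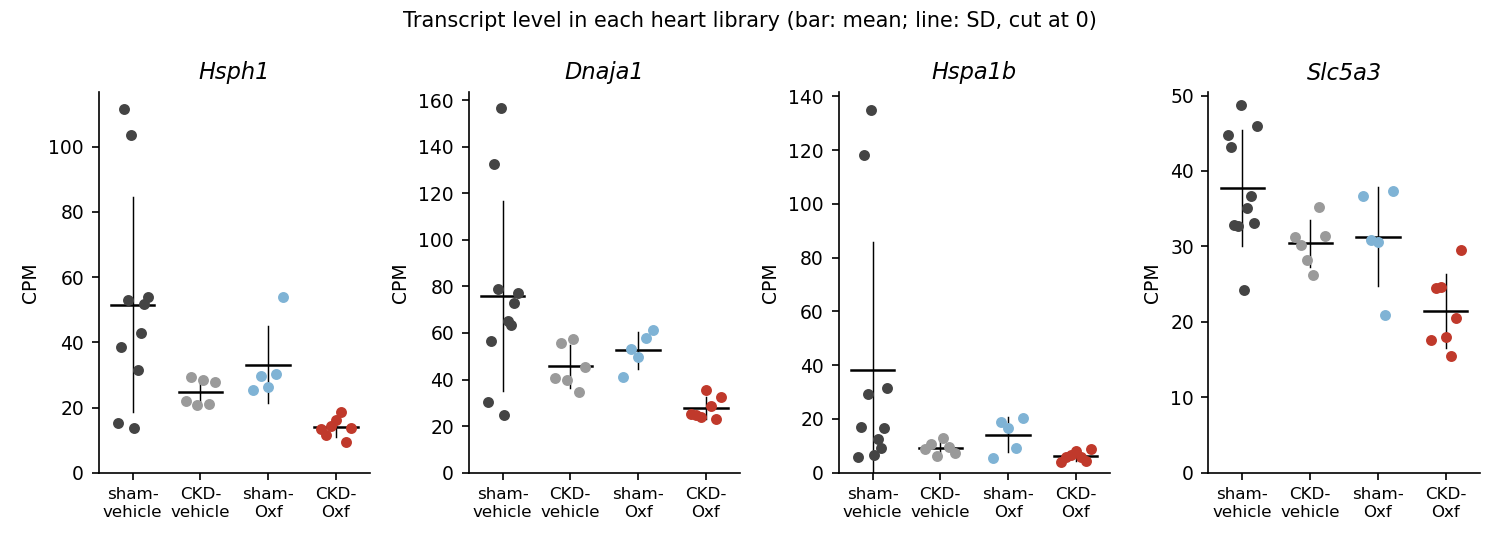
CPM of Hsph1, Dnaja1, Hspa1b and Slc5a3 in each library of the 4 groups, with the mean (bar) and SD (line). CKD-Oxf libraries lie at 9.50 to 18.7 CPM for Hsph1 against 13.8 to 112 in sham-vehicle, where 2 libraries stand high for Hsph1, Dnaja1 and Hspa1b.

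All 13 genes of the heat shock and cold-inducible list were tested, and 1 passed (Hsph1), beside 0.0124% of all genes tested. Dnaja1 is not a member of the list. At an unadjusted p under 0.05 8 members were lower and 0 higher. Over all genes tested 4.14% were lower and 5.52% higher by that rule. The list's median log2 fold change was -0.51 against -0.01 over all genes tested. Hspa1b, an inducible HSP70, was at 4.16 to 8.81 CPM in CKD-Oxf (median 5.80) and at 6.03 to 135 in sham-vehicle (median 16.9). Its fold change was the largest of the list (-2.61 ± 0.55 on the log2 scale) but did not pass (edgeR adjusted p = 0.105), and mice 903 and 905 held 118 and 135 CPM of it. Hspa1a, its near-identical neighbour, had a value of -2.45 ± 0.63 (adjusted p = 0.177). Reads that fit both genes may have been counted at each or divided between them, so the pair may be a single signal counted again. Further members were the stress-induced HSP90 gene Hsp90aa1 (-1.01 ± 0.25), its constitutive partner Hsp90ab1 (-0.51 ± 0.17), the co-chaperone gene Dnajb1 (-0.90 ± 0.23), the constitutive HSP70 gene Hspa8 (-0.50 ± 0.24) and the mitochondrial chaperonin gene Hspe1 (-0.52 ± 0.25). The cold-inducible RNA-binding genes Cirbp (0.20 ± 0.13) and Rbm3 (-0.12 ± 0.14) had small values. DESeq2 called 5 members (Hsph1, Hspa1a, Hspa1b, Hsp90aa1 and Dnajb1) and limma voom 2 (Hsph1 and Hsp90aa1). Of all 24273 genes tested, these tools called 136 and 456.

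The high controls were left out in a fit added after the data were seen. Without mice 903 and 905, sham-vehicle replicates 3 and 5, Hsph1 gave -1.48 (adjusted p = 0.0403) and Dnaja1 -1.12 (adjusted p = 0.0428), while Hspa1b went from -2.61 to -1.40 (adjusted p = 0.236) and the list's median from -0.51 to -0.30. Against mice 906 to 910 alone Hsph1 was -1.48 (adjusted p = 0.0677) and against mice 901 to 905 alone -2.21 (adjusted p = 0.00622). In the fit that included the clock score Hsph1 was -1.94 and Dnaja1 -1.48, close to the values without it, and neither passed (adjusted p = 0.0826 for both). Across the 34 alternatives Hsph1 passed in 23 (adjusted p from 1.23e-06 to 0.158), Dnaja1 in 22 (1.55e-05 to 0.166) and Slc5a3 in 18 (0.000181 to 0.767), and none of the 3 changed direction in them. Hspa1b passed in 4 (0.000501 to 0.9997). Within sham-vehicle, Hsph1 and Dnaja1 were higher in libraries with more 7SL RNA (Pearson r 0.72 and 0.79, n = 10; without the 2 farthest libraries 0.59 and 0.66). Their Spearman rho was 0.71 and 0.83, and no relation passed correction over the 12 relations computed (permutation test, adjusted p = 0.122 and 0.0942 for r, 0.163 and 0.0588 for rho). With the log2 7SL share as covariate Hsph1 was -1.72 (adjusted p = 0.0172) and Dnaja1 -1.30 (adjusted p = 0.0203). The part of handling or RNA quality in these levels was not tested.

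The promoters of these genes are shown because Hsph1 and Dnaja1 fell together in CKD-Oxf and Hspa1b had the largest value of the heat shock list. The heat shock factor binds repeats of the unit GAA, and a pair of facing units was searched as GAANNTTC or TTCNNGAA (each its own reverse complement, so both strands are covered) in the 250 bases before the RefSeq gene start (GRCm38.p6). This motif was chosen after the values were seen. Capitals mark the match, which begins 33 bases before the RefSeq start of Hsph1, 124 before that of Dnaja1 and 104 before that of Hspa1b. The gene positions given above are from GENCODE, which starts Hsph1 and Dnaja1 further upstream. By those positions the matches of Hsph1 and Dnaja1 lie inside the genes, not before them.
Hsph1, chr5:149636337-149636586, minus strand: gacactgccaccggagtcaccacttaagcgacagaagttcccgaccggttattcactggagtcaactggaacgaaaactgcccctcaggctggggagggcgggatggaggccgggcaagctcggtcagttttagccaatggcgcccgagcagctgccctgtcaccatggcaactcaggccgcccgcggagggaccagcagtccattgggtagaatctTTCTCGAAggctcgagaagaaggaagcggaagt
Dnaja1, chr4:40722218-40722467, plus strand: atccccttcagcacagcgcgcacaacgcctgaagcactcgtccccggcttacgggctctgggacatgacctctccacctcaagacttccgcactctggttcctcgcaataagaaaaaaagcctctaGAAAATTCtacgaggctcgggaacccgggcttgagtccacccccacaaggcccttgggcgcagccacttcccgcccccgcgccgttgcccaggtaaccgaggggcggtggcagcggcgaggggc
Hspa1b, chr17:34959239-34959488, minus strand: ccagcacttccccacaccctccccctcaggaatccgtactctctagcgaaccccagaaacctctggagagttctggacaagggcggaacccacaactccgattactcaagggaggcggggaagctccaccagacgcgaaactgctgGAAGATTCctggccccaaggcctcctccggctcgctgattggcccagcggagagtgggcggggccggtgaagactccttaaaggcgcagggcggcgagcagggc
Of the 13 listed genes 9 had a window in the table and 6 of them held the pair, but these are not separate promoters: Hspa1a and Hspa1b are near-identical copies, and the windows of Hspd1 and Hspe1 overlap. The pair is in 12.84% of all 32851 windows of this length, a share per window that cannot be set against a count of genes with up to 2 windows. The windows of Slc5a3 and Chordc1 and the other windows of Dnaja1 hold no match. A stricter motif of 3 heat shock units was also searched, and no window of Hsph1, Dnaja1 or Hspa1b held it. Among the listed genes only the overlapping windows of Hspd1 and Hspe1 did, and it is in 0.4657% of all 32851 windows. The E-box and D-box motifs were searched too. The windows shown hold neither, and the second window of Hsph1 holds 1 E-box. A match is a string of letters and does not show that a factor was bound.

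Slc5a3 (ENSMUSG00000089774) encodes the sodium/myo-inositol cotransporter, which brings the osmolyte inositol into cells, and lies on chromosome 16 at 92058322 to 92087473 (plus strand). It was at 15.5 to 29.5 CPM in CKD-Oxf (median 20.5) and at 24.3 to 48.8 CPM in sham-vehicle (median 35.9). The groups overlapped through mouse 906, the lowest control. The log2 fold change was -0.82 ± 0.14 (95% interval -1.11 to -0.52; edgeR adjusted p = 0.0286). The CKD-Oxf mean was 21.4 ± 4.95 CPM and the sham-vehicle mean 37.7 ± 7.67, and again CKD-vehicle (30.4) and sham-Oxf (31.3) lay between. It overlaps Mrps6 on the same strand, and the counts of the pair could not be separated here. The call was lost against mice 906 to 910 alone (-0.71, adjusted p = 0.767), without mice 903 and 905 (-0.83, adjusted p = 0.0775) and in the clock score fit (adjusted p = 0.0826), where the fold change stayed at -0.82.

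None of the 3 genes passed in the 4 contrasts that changed surgery or gavage alone. For Hsph1 the log2 fold change was -1.05 ± 0.32 between CKD-vehicle and sham-vehicle (edgeR adjusted p = 0.952), -0.84 ± 0.33 between CKD-Oxf and CKD-vehicle (0.299), -0.63 ± 0.33 between sham-Oxf and sham-vehicle (0.427) and -1.26 ± 0.35 between CKD-Oxf and sham-Oxf (0.227). For Slc5a3 these values were -0.31 ± 0.15 (0.955), -0.50 ± 0.16 (0.219), -0.27 ± 0.16 (0.474) and -0.54 ± 0.17 (0.271). The contrasts share libraries, so their values are not independent of each other. In that order edgeR called 2, 8, 0 and 0 genes (0.00824%, 0.0330%, 0.00% and 0.00% of those tested), with 1083 (4.46%), 3178 (13.1%), 3054 (12.6%) and 1997 (8.23%) genes at an unadjusted p under 0.05.

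Genes next in order by p are given as values, since none of them passed. On the lower side stood Chordc1, a partner of HSP90 (-1.15 ± 0.23, edgeR adjusted p = 0.0861), Prg4, which encodes the lubricating proteoglycan lubricin (-1.08 ± 0.22, 0.0861), P4ha1, which hydroxylates collagen prolines (-0.87 ± 0.19, 0.131), Ppid, an HSP90-binding cyclophilin (-0.47 ± 0.11, 0.131), and l7Rn6 (-0.70 ± 0.15, 0.105) and Zc3h11a (-0.57 ± 0.13, 0.131). Prg4 was at 7.16 to 18.7 CPM in CKD-Oxf and 16.3 to 36.8 in sham-vehicle, with a narrow overlap. On the higher side the first 2 were potassium channel genes. Kcnn1, a calcium-activated channel, was at 5.84 to 9.69 CPM in CKD-Oxf (median 7.98) and 4.17 to 5.99 in sham-vehicle (median 5.04), a difference of 0.64 ± 0.12 (adjusted p = 0.0689). Kcnh2, the channel of the rapid delayed rectifier current, was at 63.2 to 131 CPM (median 102) against 38.5 to 96.6 (median 56.7), a difference of 0.79 ± 0.16 (adjusted p = 0.0899). Both groups of libraries overlapped in these genes. Sham-Oxf libraries held 5.40 to 8.59 CPM of Kcnn1 and 73.6 to 104 of Kcnh2. CKD-vehicle libraries held 5.21 to 8.18 and 49.3 to 95.9. Other values were those of the ubiquitin enzyme gene Ube2o (0.56 ± 0.12, adjusted p = 0.128), the ubiquitin ligase gene Rnf19b (0.45 ± 0.10), the pro-apoptotic gene Bmf (0.49 ± 0.11), the acyl-CoA thioesterase gene Acot11 (0.47 ± 0.11), the aldehyde dehydrogenase gene Aldh9a1 (0.59 ± 0.14), Zbtb22 (0.43 ± 0.10) and Tbc1d16 (0.57 ± 0.12, adjusted p = 0.127), the others at 0.131.

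Fbxw8, part of a ubiquitin ligase, was the first protein-coding gene in order of p whose libraries did not overlap. It lay at 34.2 to 48.9 CPM in CKD-Oxf and at 27.6 to 33.0 in sham-vehicle, a log2 difference of 0.40 ± 0.09 that did not pass (edgeR adjusted p = 0.131). By mean Fbxw8 was 40.6 CPM in CKD-Oxf, 38.5 in sham-Oxf, 34.1 in CKD-vehicle and 30.7 in sham-vehicle. Among other gene types RP24-406I1.2, inside Fbxl7 on the same strand, was separated in the other direction, at 1.04 to 2.64 CPM against 2.94 to 4.94 (-0.91 ± 0.19, adjusted p = 0.0899). The pseudogenes RP23-404D8.10 (0.61 ± 0.15, adjusted p = 0.165) and RP23-285J17.1 (0.53 ± 0.14, 0.216) share 89.0% and 79.8% of their 31-base words with Ankrd12 and Wtap, so their counts are uncertain. Atp10d was at 0.68 ± 0.20 (adjusted p = 0.246).

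The 19 function lists had 1 call between them in edgeR, that of Hsph1. DESeq2 called members in 6 lists (12 members) and limma voom in 9 (12 members). Over all 24273 genes tested DESeq2 called 136 and limma voom 456. The lists are described by their members at an unadjusted p under 0.05, for which the background was 9.67% of all genes tested, and by their medians, for which it was -0.01. The medians of the inflammation, nuclear respiratory chain, antioxidant, calcium cycling, glucocorticoid, immediate-early and renin-angiotensin lists changed sign when 1 of the 17 libraries was left out, so no direction is read from them.

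**Figure D4:**
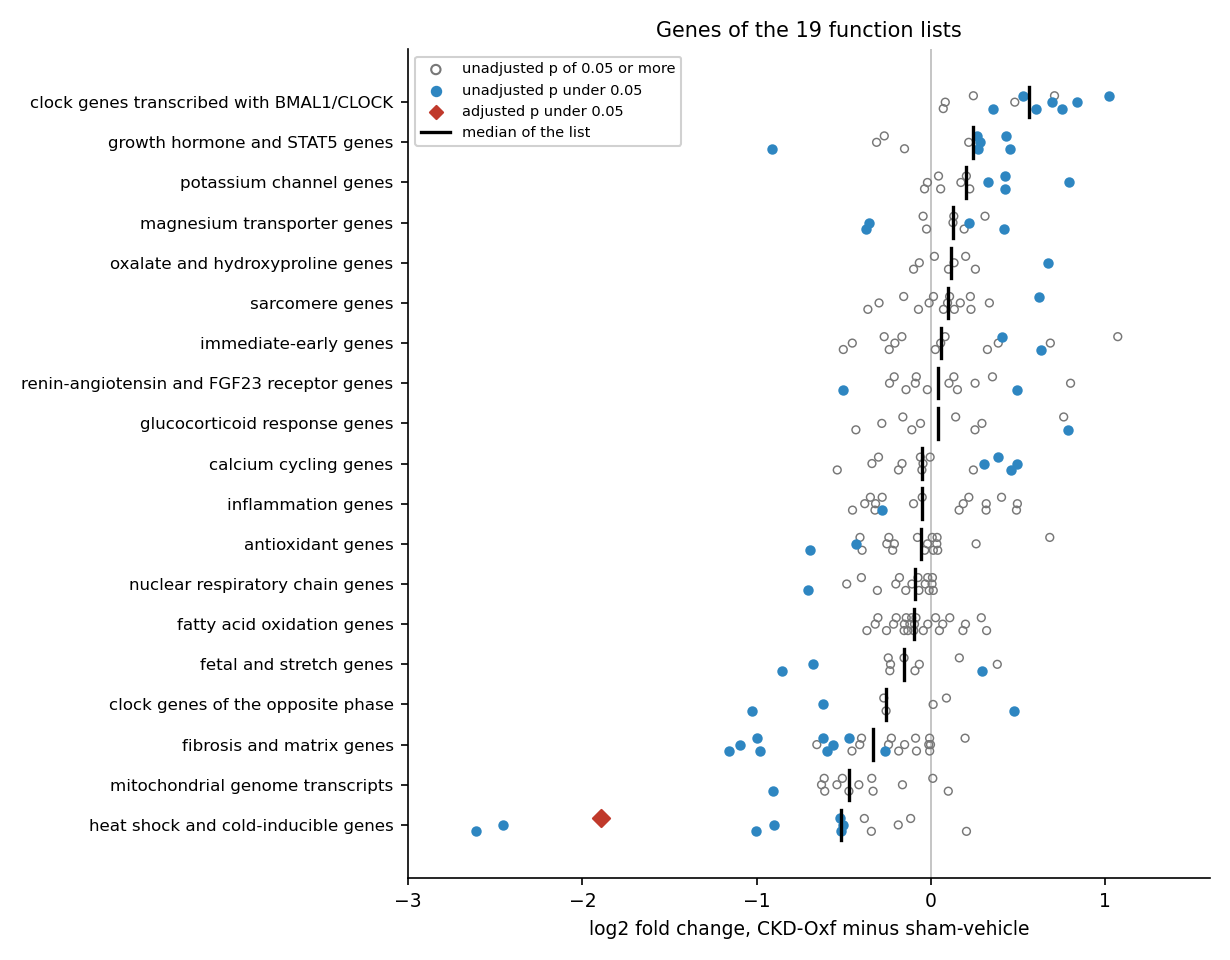
Log2 fold change of CKD-Oxf against sham-vehicle for each tested gene of the 19 function lists, ordered by the list median (black bar). The diamond is Hsph1, blue points have an unadjusted p under 0.05, and list medians run from -0.51 (heat shock) to 0.56 (clock genes transcribed with BMAL1/CLOCK).

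No matrix gene was called in edgeR, and most values were negative. Of the 24 tested fibrosis and matrix genes 0 were higher and 9 lower at an unadjusted p under 0.05, the median was -0.33 and 23 of 24 had a negative value. Postn, which encodes the matricellular protein periostin of activated fibroblasts, was at 14.7 to 23.1 CPM in CKD-Oxf (median 18.2) and 15.97 to 85.1 in sham-vehicle (median 35.6), a log2 difference of -1.09 ± 0.25 that did not pass (edgeR adjusted p = 0.131). The CKD-Oxf hearts lay at the lower end of the control range. Thbs4 (-1.16 ± 0.28, adjusted p = 0.134), Lum (-0.997 ± 0.288, 0.245), Comp (-0.98 ± 0.33, 0.307) and Bgn (-0.62 ± 0.22, 0.319) are genes of the extracellular matrix with like values, and the main fibrillar collagen genes Col1a1 (-0.45 ± 0.27) and Col3a1 (-0.56 ± 0.25) were smaller. DESeq2 and limma voom each called Postn, Thbs4 and Lum. The 7 fibroblast markers had a median of -0.38, all 7 below 0, and their part in the matrix values was not tested. Dcn, Lum and Col1a1 are members of both lists, so the marker list is not a separate measure. The median of the fibrosis and matrix list was -0.12 with the clock score as covariate and -0.17 against mice 906 to 910 alone.

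The 11 fetal and stretch genes had a median of -0.15, with 2 lower and 1 higher at an unadjusted p under 0.05. Nppb, the B-type natriuretic peptide gene, was at 5.40 to 18.6 CPM in CKD-Oxf (median 14.8) and 6.56 to 55.2 in sham-vehicle (median 22.7). Its log2 difference was -0.85 ± 0.36 (edgeR adjusted p = 0.42). By mean it was lowest in sham-Oxf (8.86 CPM), then CKD-Oxf (13.4), sham-vehicle (24.1) and CKD-vehicle (49.5). Nppa, the atrial peptide gene, differed by -0.07 ± 0.46 (95% interval -0.9997 to 0.87), so it was bounded within 1 log2, by a narrow margin, and not within 0.5. Its atrial companions were also variable, and CKD-Oxf replicate 5 held only 85.6 CPM of it against a group median of 540. Myh7, the beta myosin gene of the fetal programme, was bounded well at 0.16 ± 0.13 (95% interval -0.10 to 0.43), as was the adult alpha myosin gene Myh6 at 0.17 ± 0.16 (-0.16 to 0.50). Uchl1 (-0.68 ± 0.31) and the stretch gene Xirp2 (0.29 ± 0.14) completed the 3.

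No contractile or ion channel gene of the lists was called in edgeR, while DESeq2 and limma voom called Kcnh2 and limma voom also Ryr2. Of 15 sarcomere genes 1 was higher at an unadjusted p under 0.05 and 0 lower, namely Tcap, the titin cap gene (0.62 ± 0.22, edgeR adjusted p = 0.322; 0.37 without CKD-Oxf replicate 4), and the median was 0.10. Of 14 calcium cycling genes 4 were higher and 0 lower, with a median of -0.05. These were the ryanodine receptor gene Ryr2 (0.46 ± 0.15, adjusted p = 0.286), the junctophilin gene Jph2 (0.38 ± 0.15), the sodium/calcium exchanger gene Slc8a1 (0.30 ± 0.13) and the L-type channel gene Cacna1c (0.49 ± 0.23). The list's direction thus depended on the gene, since 9 of the 14 had a negative value. Of 11 potassium channel genes 4 were higher and 0 lower, with a median of 0.20. They included Kcnh2, Kcnj11, a subunit of the ATP-sensitive channel (0.33 ± 0.11), and Kcnq1, of the slow delayed rectifier (0.43 ± 0.17).

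For energy metabolism the intervals are given beside the calls. Among genes of at least 1 log2 CPM, 91.0% were bounded within 1 log2 of 0 and 44.2% within 0.5. None of the 25 fatty acid oxidation genes had an unadjusted p under 0.05, and none passed in DESeq2 or limma voom. All 25 had a 95% interval within 1 log2 of 0 but only 4 within 0.5, with a median of -0.10. The member with the smallest p was Ppara, the nuclear receptor that drives the pathway, at 0.29 ± 0.16 (edgeR adjusted p = 0.59). Of 16 nuclear respiratory chain genes 1 was lower, Cox6a2 (-0.71 ± 0.30, adjusted p = 0.436), and 13 were bounded within 1 log2 but only 1 within 0.5. The 13 mitochondrial genome transcripts had a median of -0.47 but wide errors. Of these 1 was lower at an unadjusted p under 0.05 (mt-Atp8, -0.91 ± 0.36, adjusted p = 0.393), and 5 of 13 were bounded within 1 log2 and 0 within 0.5. Antioxidant genes had a median of -0.06, with 2 of 18 lower, the peroxiredoxin gene Prdx1 (-0.69 ± 0.26, adjusted p = 0.358) and the extracellular dismutase gene Sod3 (-0.43 ± 0.17).

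The clock genes had no call in edgeR, and only the list transcribed with BMAL1/CLOCK had values in 1 direction. All 12 genes transcribed with BMAL1/CLOCK had a positive value, 7 of them at an unadjusted p under 0.05, with a median of 0.56. Dbp, an output transcription factor of the clock, was at 76.3 to 130 CPM in CKD-Oxf (median 88.3) and 24.1 to 95.1 in sham-vehicle (median 48.5), a log2 difference of 0.84 ± 0.30 (edgeR adjusted p = 0.322). The repressor gene Cry2 had the smallest p (0.60 ± 0.16, adjusted p = 0.2) and was the 1 member limma voom called. Arntl, which encodes BMAL1, was at -1.02 ± 0.36 (adjusted p = 0.319), and the list of the opposite phase had a median of -0.26. The 7 genes of that list were mixed, with 3 positive and 4 negative values. At an unadjusted p under 0.05, 1 of them was higher and 2 were lower. Between CKD-Oxf and CKD-vehicle Dbp differed by 2.08 ± 0.36 (adjusted p = 0.0156). Sham-Oxf libraries held 63.1 to 130 CPM of Dbp. The BMAL1/CLOCK list was also averaged per library as log2 CPM minus the sham-vehicle mean. This average had a median of 0.72 in CKD-Oxf, 0.93 in sham-Oxf and -0.85 in CKD-vehicle. Against mice 906 to 910 alone the median of the BMAL1/CLOCK list was 0.21, and against mice 901 to 905 it was 0.93. With the clock score as covariate, a score built from these same genes, it was 0.11 and 4 of the 12 values were negative.

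Growth hormone and STAT5 genes had 5 of 10 members higher and 1 lower at an unadjusted p under 0.05, with a median of 0.24. Stat5a, the transcription factor itself, was at 25.6 to 38.1 CPM in CKD-Oxf (median 32.2) and 18.5 to 25.7 in sham-vehicle (median 23.7), touching at the edge. Its log2 difference was 0.45 ± 0.10 (edgeR adjusted p = 0.131), and both DESeq2 and limma voom called it. Igf1, the growth factor gene under STAT5 control in liver, had a value of -0.91 ± 0.26 (adjusted p = 0.243). Cish, a feedback inhibitor of this pathway, differed by 0.28 ± 0.13 (adjusted p = 0.498) here, and by 0.82 ± 0.14 between CKD-vehicle and sham-vehicle, where it passed (adjusted p = 0.0261). The difference between those 2 contrasts is that of CKD-Oxf and CKD-vehicle, -0.53 ± 0.15 (adjusted p = 0.196), and did not pass.

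Magnesium transporter genes had 2 of 10 higher and 2 lower at an unadjusted p under 0.05, and all 10 were bounded within 1 log2 and 4 within 0.5. Slc41a1, a magnesium efflux gene, was at 40.4 to 54.5 CPM in CKD-Oxf (median 45.3) and 29.5 to 43.0 in sham-vehicle (median 34.7), with a log2 difference of 0.42 ± 0.10 (edgeR adjusted p = 0.131). Slc41a3 of the same family was at -0.35 ± 0.15 (adjusted p = 0.428), although it passed between CKD-Oxf and CKD-vehicle (-1.05 ± 0.17, adjusted p = 0.0156). Of the 8 oxalate and hydroxyproline genes that passed the filter, out of 12, 1 was higher: Prodh, which begins proline breakdown, at 0.67 ± 0.17 (adjusted p = 0.169). DESeq2 and limma voom called both Slc41a1 and Prodh. The liver enzyme genes Agxt, Agxt2, Hao1 and Prodh2 were too low to test.

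No stress hormone, immediate-early, inflammatory or renal axis gene of the lists was called in edgeR, and the shares at an unadjusted p under 0.05 were near the background. Among 10 glucocorticoid response genes Fkbp5, a chaperone of the receptor, was the 1 higher (0.78 ± 0.25, edgeR adjusted p = 0.273; 0.52 without CKD-Oxf replicate 7). Among 15 immediate-early genes 2 were higher, Junb (0.63 ± 0.24, adjusted p = 0.361) and Ier2 (0.41 ± 0.19). Of 17 tested inflammation genes 1 was lower, the interleukin-1 receptor gene Il1r1 (-0.28 ± 0.09, adjusted p = 0.273). Il1r1 was called by limma voom, while DESeq2 called no member of that list. Tnf (0.50 ± 0.43) and Lcn2 (0.49 ± 0.38) were near the limit of counting. Of 14 renin-angiotensin and FGF23 receptor genes the prorenin receptor gene Atp6ap2 was lower (-0.50 ± 0.19, adjusted p = 0.374) and Fgfr3 higher (0.49 ± 0.19, adjusted p = 0.388).

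Of the 14 cell type marker lists 0 had a member past the threshold in edgeR. DESeq2 called 4 markers in 3 lists and limma voom 3 in 3, beside 136 and 456 of 24273 genes tested. At an unadjusted p under 0.05 smooth muscle and pericyte markers had 4 of 7 lower and a median of -0.59. That median was -0.28 with the clock score as covariate and -0.30 against mice 906 to 910 alone. Tagln, a smooth muscle actin-binding protein gene, was at 1.98 to 4.88 CPM in CKD-Oxf and 3.99 to 10.7 in sham-vehicle (-0.90 ± 0.23, edgeR adjusted p = 0.175), and DESeq2 and limma voom called it. Summed over the list, the levels were 306 to 774 CPM in CKD-Oxf and 528 to 1092 in sham-vehicle. Endothelial markers had 2 of 7 lower, the tight junction gene Cldn5 (-0.96 ± 0.27, adjusted p = 0.228) and the sialomucin gene Emcn (-0.41 ± 0.12, adjusted p = 0.246), with a median of -0.27 and sums of 631 to 1069 against 677 to 1263 CPM. The endothelial median was -0.05 with the clock score as covariate and -0.15 against mice 906 to 910 alone. Macrophage markers summed to 90.3 to 125 against 87.0 to 129 CPM, with a median of -0.04 and 6 of 7 bounded within 1 log2. With 1 library left out the macrophage median ran from -0.094 to 0.010, so no direction is read from it. None of the 7 cardiomyocyte markers had an unadjusted p under 0.05, and their median was -0.16. The cardiomyocyte median turned to 0.08 with the clock score as covariate and to 0.03 against mice 906 to 910 alone.

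Blood and neighbouring tissue markers were low and uneven. The 7 red cell markers all had positive values (median 1.01), with Alas2, the heme synthesis enzyme gene of red cell precursors, at 1.16 ± 0.36 (edgeR adjusted p = 0.262) and sums of 17.6 to 138 against 13.3 to 41.5 CPM. CKD-Oxf replicate 2 held 69.4 CPM of Alas2, and without it Alas2 was 0.71 and the list's median 0.58. Of 7 neutrophil markers 3 passed the filter, all at an unadjusted p under 0.05, and their sums were only 2.01 to 7.00 CPM in CKD-Oxf and 1.42 to 3.99 in sham-vehicle. S100a9, a neutrophil granule gene, was at 2.14 ± 0.68 (adjusted p = 0.273) on levels of at most 2.64 CPM, reached in CKD-Oxf replicate 4 (the other 6 held at most 0.651). Without that library it was 1.07, and Ly6g, a defining neutrophil gene, had at most 1 count in any library. Skeletal muscle markers had a median of -2.48, which rests on 1 control: sham-vehicle replicate 6 held 210.4 CPM of Myh1 and the other 9 at most 0.415. Without that library the median was -0.38. Hepatocyte (median 0.55), lymphocyte (0.25), mesothelial (0.23), adipocyte (-0.13) and atrial (-0.22) markers had no member at an unadjusted p under 0.05. Of these medians only the atrial one kept its sign in every fit that left out 1 library. The hepatocyte median was -0.51 without CKD-Oxf replicate 4, the lymphocyte median -0.53 without CKD-Oxf replicate 6, the mesothelial median -0.083 without CKD-Oxf replicate 7 and the adipocyte median 0.31 without sham-vehicle replicate 10. The part of these other cells in the gene values above was not tested.

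**Figure D5:**
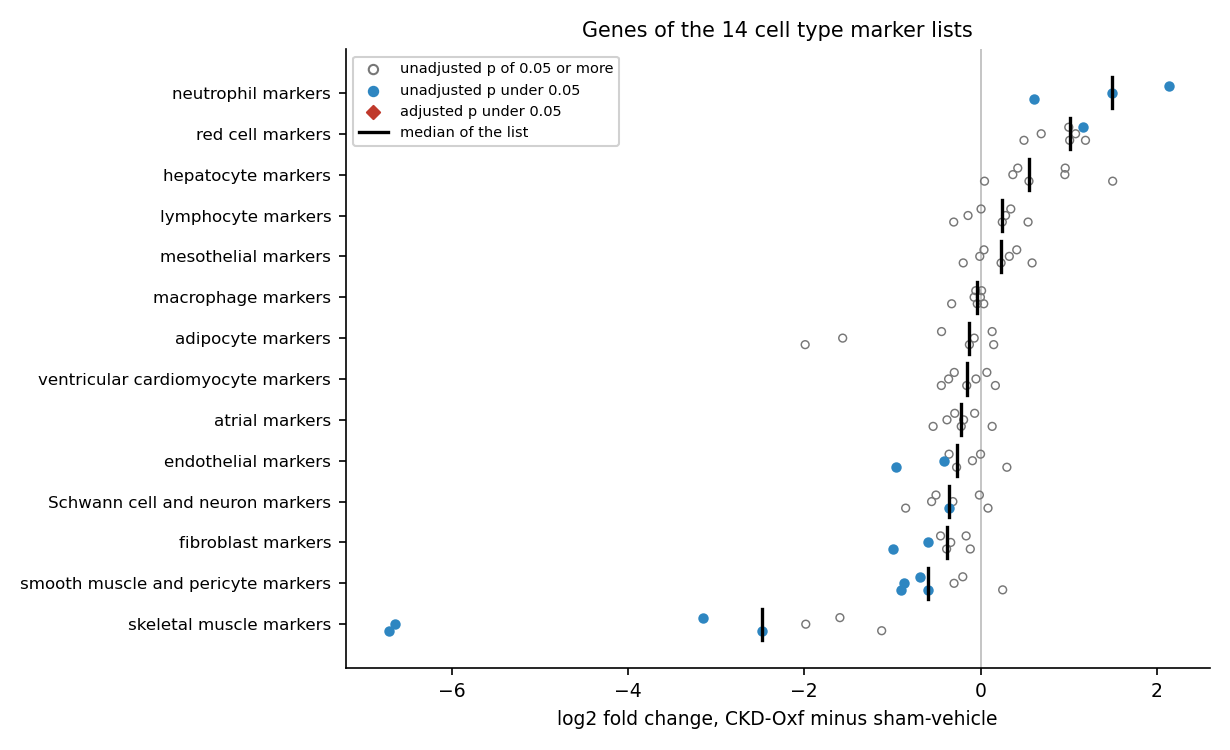
Log2 fold change of CKD-Oxf against sham-vehicle for each tested gene of the 14 cell type marker lists, ordered by the list median (black bar). Blue points have an unadjusted p under 0.05. Medians run from -2.48 (skeletal muscle, resting on 1 control library) to 1.49 (neutrophil, 3 genes of low level).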

How the data were processed

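RNA of 28 ventricles was sequenced. The authors deposited 1 table of raw read counts for 45513 gene rows. Per the submitters' processing notes, FastQC 0.11.7, MultiQC 1.9, STAR 2.6.1d, featureCounts 1.6.3 of the Subread package and build mm10 were used; the annotation and the strand setting are not given in the sources used here. Of the rows, 1532 held no count and 45465 were found in GENCODE M21, which gave positions and overlaps. The 2 copies of 7SL differed by at most 0.0113% of their mean, so reads that fit several places may count at each, and values of genes with near-identical copies are uncertain.

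Genes were filtered with filterByExpr (minimum count 10), which left 24273. Counts were scaled by TMM and fitted with edgeR 4.0.16 (R 4.3.3; robust quasi-likelihood, 1 mean for each of the 4 groups). The standard error is the fold change divided by the root of F. P-values were Benjamini-Hochberg adjusted over all genes tested, with a threshold of 0.05. CPM are TMM-scaled, with a prior count of 2 on the log2 scale. Alternatives used DESeq2 1.42.0, limma 3.58.1, other scalings and filters, covariates and left-out libraries. Permutation tests used SciPy 1.17.1, with 100000 draws for n of 10. Replicates were numbered in accession order, so numbers do not pair samples.

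Genes were named by rule: 12 protein-coding genes in each direction of at least 1 log2 CPM, called ones first by fold change and then by smallest p; 3 of other types in each direction; the first member of each list (up to 4 where called); and 11 reference genes. Other list members named were chosen after their values were seen. The contrast, the lists and the rule were chosen with earlier results of these data known. A few genes of the lists are not reported here by name.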

Additional observations from a re-analysis of the deposited data

Results flagged for a closer look

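Single libraries stood apart from the rest of their group, by Dixon's ratio of the gap to the nearest library over the group's range, in 13 of 136 groups of values compared, where chance gives about 6.8. The values are log2 CPM, and no explanation was tested. CKD-Oxf replicate 4 was lowest for Cry2 (5.00 against a group median of 5.40, ratio 0.678) and for the phospholipid transporter gene Atp10d (4.65 against 5.73, ratio 0.586), and highest for Lum (4.90 against 3.58, ratio 0.625). CKD-Oxf replicate 5 was lowest for Nppa (6.42 against 9.08, ratio 0.787) and for Sln, an atrial regulator of the calcium pump (-0.16 against 4.69, ratio 0.786). Sham-vehicle replicate 3 was also lowest for Sln (2.50 against 5.29, ratio 0.486). CKD-Oxf replicate 1 was lowest for RP24-406I1.2 (0.12 against 1.13, ratio 0.578) and highest for Slc41a3 (4.37 against 3.83, ratio 0.746). CKD-Oxf replicate 6 was highest for the adipocyte hormone gene Lep (0.86 against -2.97, ratio 0.62). Sham-vehicle replicate 6 was highest for the skeletal myosin gene Myh1 (7.72 against -1.29, ratio 0.825) and lowest for Il1r1 (4.26 against 4.71, ratio 0.519). Sham-vehicle replicate 1 was lowest for Ppara (3.81 against 4.71, ratio 0.525). Sham-vehicle replicate 2 had the fewest counts (log2 total 24.41 against 25.19, ratio 0.552).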

How the results depend on the processing

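The count of called genes was the least stable result. Against 3 genes with edgeR it was 136 with DESeq2, 456 with limma voom, 8 with upper quartile scaling, 15 where every library had at least 10 counts, 21 without sham-Oxf replicate 1, 10 with the log2 7SL share as covariate, 13 against mice 901 to 905, and 5 without CKD-Oxf replicate 4 and sham-vehicle replicate 5 (chosen after seeing the data). It was 0 without a filter (3743 at an unadjusted p under 0.05), in the 17 libraries alone (2893), against mice 906 to 910 (826) and with the clock score (1881). Leaving out 1 library gave 0 to 25. The number of genes bounded within 0.5 log2 was 3955 against mice 901 to 905, and 5536 to 6972 with 1 library left out. The cause was not tested. Of 2169 values of 64 named genes under 34 alternatives, 2003 kept direction and side of the threshold, 118 came to pass, 39 no longer passed and 9 changed sign, in 3 genes, none of which passed in edgeR. Nppa was 0.14 with limma voom, 0.28 with the clock score, 0.15 and 0.06 without sham-vehicle replicates 1 and 7, and 0.09 without CKD-Oxf replicate 5 (down to -0.23 without another library). The hepatocyte marker Alb was -0.48 with limma voom, -0.058 without CKD-Oxf replicate 4 (up to 1.83 without another library) and -0.11 without that library and sham-vehicle replicate 5, and the macrophage marker Fcgr1 was 0.17 against mice 906 to 910. The difference in log2 total counts was 0.069 by means and -0.042 by medians. With the clock score the medians of fatty acid oxidation (0.16), respiratory chain (0.20), calcium cycling (0.21) and fetal genes (0.12) turned positive. No paired analysis was possible because the groups share no mouse and replicate numbers follow accession order. Low genes such as the neutrophil markers are limited by depth.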

Other observations

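Partners of HSP70 and HSP90 outside the heat shock list were chosen after values were seen, and their values carry no weight as support. Apart from Dnaja1 none passed. The adaptor gene Stip1, which links both chaperones, was at -0.78 ± 0.23 (edgeR adjusted p = 0.262), Cacybp at -0.87 ± 0.26 (0.262) and the co-chaperone genes Ptges3 at -0.57 ± 0.23 (0.411), Ahsa1 at -0.49 ± 0.21 (0.422) and Hspa4l at -0.49 ± 0.17 (0.328). Fkbp4 (-0.28 ± 0.25), Hspa4 (-0.17 ± 0.16), Dnajb4 (-0.15 ± 0.15) and Dnaja4 (-0.11 ± 0.16) were nearer 0. The factor genes themselves, Hsf1 (0.09 ± 0.18) and Hsf2 (-0.07 ± 0.11), had the smallest values of the set.

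Inositol and osmolyte genes were looked at for the same reason, after Slc5a3 was seen. Isyna1, which makes inositol from glucose 6-phosphate, was at 15.8 to 20.9 CPM in CKD-Oxf and 13.0 to 15.5 in sham-vehicle, so that the libraries did not overlap (0.35 ± 0.10, edgeR adjusted p = 0.252). Miox, which breaks inositol down and is known from kidney, did not overlap either, but at 0.195 to 1.36 against 0 to 0.159 CPM its level was very low (2.35 ± 0.72, adjusted p = 0.262). The taurine transporter gene Slc6a6 was at 0.57 ± 0.14 (adjusted p = 0.155), in the direction opposite to Slc5a3. Nfat5, the factor of the osmotic response, was at 0.07 ± 0.11 and Akr1b3, the aldose reductase gene, at -0.33 ± 0.22. Apart from Slc5a3 none of these genes passed.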
